A study of Mus musculus with 5 samples.

Results

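Dendritic cells (DCs) grown from C57BL/6 mouse bone marrow with FLT3L and GM-CSF were cultured with Ptgs-/- 5555 melanoma cells, with Ptgs+/+ 5555 melanoma cells, or untreated, and each condition was 1 culture. The comparison here is of the DCs of the Ptgs-/- culture with those of the Ptgs+/+ culture, within each of the 6 DC classes of the authors' cell annotation. Cells were taken by the culture that this annotation names for them. They were 3584 cells of the Ptgs-/- culture and 3884 of the Ptgs+/+ culture, 7468 in all, of 10812 cultured cells and of 31671 cells in the matrices of the whole series. The untreated culture, with 3344 cells, is given beside them as a level. 5555 is a mouse melanoma line driven by mutant BRAF. The genotype belongs to the tumour cells, and the labels give the DCs no genotype beyond their strain. How many clones the Ptgs-/- line stands for is not given in the sources used here. On day 10 live CD45+ cells were sorted, marked with hashtag antibodies and run together as 1 droplet library of 3' RNA, loaded with 30000 cells.

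Ptgs1 and Ptgs2 encode the cyclooxygenases, which start the synthesis of prostaglandins from arachidonic acid. Prostaglandin E2 is released by many tumours and reaches DCs mainly through the receptors EP2 (Ptger2) and EP4 (Ptger4), which raise cyclic AMP. Conventional DCs comprise cDC1s, specialised in cross-presentation to CD8 T cells, and cDC2s, which mainly prime CD4 T cells, and both can mature into CCR7+ DCs that migrate to lymph nodes. Plasmacytoid DCs (pDCs) are known for making type I interferon.

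The comparison asks which part of the DCs' response to melanoma cells depends on the tumour cells' Ptgs genes. With 1 culture per condition there is no replicate spread, so no test was made between conditions and every interval covers counting error only. The tumour genotype and any other difference between the cultures cannot be told apart. The sort kept CD45+ cells, so the tumour cells that carry the deletion were not measured, and Ptgs1 and Ptgs2 in DCs do not check the labels. The cells held 32883793 unique molecular identifiers (UMIs, 1 per captured RNA molecule) in the Ptgs-/- culture, 36870602 in the Ptgs+/+ culture and 35105339 in the untreated culture. Free RNA was shared by the 3 cultures in the droplet run and was not subtracted. Melanoma markers summed to at most 1.08 CPM, UMIs scaled to the same total in each cell, in any class, and none of the T cell, NK cell, B cell or erythroid markers was found in 10% of the cells of a class. Only 3 of the 6 melanoma markers (Pmel, Dct and Tyr) and 1 of the 3 erythroid markers were among the genes given.

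The class names were set against marker genes. In the class the authors call mDC, CCR7+ mature DC markers summed to 11402 CPM (Ptgs-/-), 11822 CPM (Ptgs+/+) and 9149 CPM (untreated), and the class is called CCR7+ DCs here. In cDC1s the cDC1 markers summed to 3305 CPM (Ptgs-/-), 2371 CPM (Ptgs+/+) and 4542 CPM (untreated), and in cDC2s the cDC2 markers summed to 2504 CPM (Ptgs-/-), 2405 CPM (Ptgs+/+) and 2411 CPM (untreated). In pDCs the plasmacytoid markers summed to 8055 CPM (Ptgs-/-), 7308 CPM (Ptgs+/+) and 10365 CPM (untreated). In CCR7+ DCs, cDC1s and cDC2s these sums were above those of the plasmacytoid, monocyte and neutrophil markers in all 3 cultures. In pDCs the monocyte markers summed to 5823 CPM (Ptgs-/-), 5139 CPM (Ptgs+/+) and 6351 CPM (untreated) and the neutrophil markers to 3988 CPM (Ptgs-/-), 12034 CPM (Ptgs+/+) and 1773 CPM (untreated), so that in the Ptgs+/+ culture the neutrophil sum was above the plasmacytoid one. The neutrophil sum moves with the pDC results, and its part in them was not tested. In the cluster labelled proliferating cDC2 the proliferating markers summed to 6915 CPM (Ptgs-/-), 6055 CPM (Ptgs+/+) and 6950 CPM (untreated), above the other sums given here for it. The cDC2 part of the name was not borne out in the same way: its cDC2 markers summed to 653 CPM (Ptgs-/-), 659.7 CPM (Ptgs+/+) and 1017 CPM (untreated), its plasmacytoid markers to 2624 CPM (Ptgs-/-), 2309 CPM (Ptgs+/+) and 2174 CPM (untreated), its monocyte markers to 3061 CPM (Ptgs-/-), 2741 CPM (Ptgs+/+) and 1624 CPM (untreated) and its neutrophil markers to 1136 CPM (Ptgs-/-), 5673 CPM (Ptgs+/+) and 860.0 CPM (untreated). The cluster is therefore named by its label only.

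CCR7+ DCs were scarcer with Ptgs-/- than with Ptgs+/+ tumour cells. They made up 13.3% of the Ptgs-/- culture (477 cells, exact Clopper-Pearson 95% interval 12.2 to 14.5%), 27.3% of the Ptgs+/+ culture (1060 cells, 25.9 to 28.7%) and 6.40% of the untreated culture (214 cells, 5.59 to 7.28%). The Ptgs-/- share was 0.488 (95% interval 0.442 to 0.538) times the Ptgs+/+ share, and no 2 of the 3 intervals overlapped. A count of cells by 2 genes that mark CCR7+ DCs gave the same order of cultures. It is not independent of the class, which held 264 of the 284 such cells (Ptgs-/-) and 666 of the 702 (Ptgs+/+). Cells with a UMI of both Ccr7, the lymph node homing receptor, and Fscn1, the actin-bundling protein of mature DCs, were 7.92% (Ptgs-/-), 18.1% (Ptgs+/+) and 5.203% (untreated). After each cell was thinned to 5000 UMIs these shares were 5.62% (Ptgs-/-), 14.4% (Ptgs+/+) and 3.39% (untreated), with 487, 389 and 339 shallower cells left out, and the ratio of the first to the second was 0.390. In pDCs, which should lack the pair, it was found in 1 of 312 cells of the Ptgs-/- culture and in 0 of 200 of the Ptgs+/+ culture, whose exact 95% interval reaches 1.83%, at median depths of 3712 and 4139 UMIs.

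The other classes held larger or similar shares with Ptgs-/- tumour cells. Shares of a culture add up to the whole, so they do not vary independently. Proliferating cDC1s were 19.2% (Ptgs-/-), 14.96% (Ptgs+/+) and 28.9% (untreated) of each culture, a ratio of 1.28 (95% interval 1.16 to 1.42) between the tumour cultures. Non-proliferating cDC1s were 29.5% (Ptgs-/-), 28.6% (Ptgs+/+) and 34.8% (untreated), and the interval of their ratio, 1.03 (95% interval 0.962 to 1.11), included equality. Shares of cDC2s were 22.01% (Ptgs-/-), 19.3% (Ptgs+/+) and 19.8% (untreated), a ratio of 1.14 (95% interval 1.04 to 1.25). For CCR7+ DCs and for both cDC1 classes the Ptgs-/- culture lay between the other cultures, and for cDC2s it was the highest. The cluster labelled proliferating cDC2 held 7.25% (Ptgs-/-), 4.69% (Ptgs+/+) and 4.097% (untreated) of cells, a ratio of 1.55 (95% interval 1.29 to 1.86). The pDC shares were 8.71% (Ptgs-/-), 5.15% (Ptgs+/+) and 5.98% (untreated), a ratio of 1.69 (95% interval 1.42 to 2.01). That last ratio was 1.13 among cells with at least 5000 UMIs, a depth that 76.6% of pDCs in the Ptgs-/- culture and 63.5% in the Ptgs+/+ culture did not reach.

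**Figure D1:**
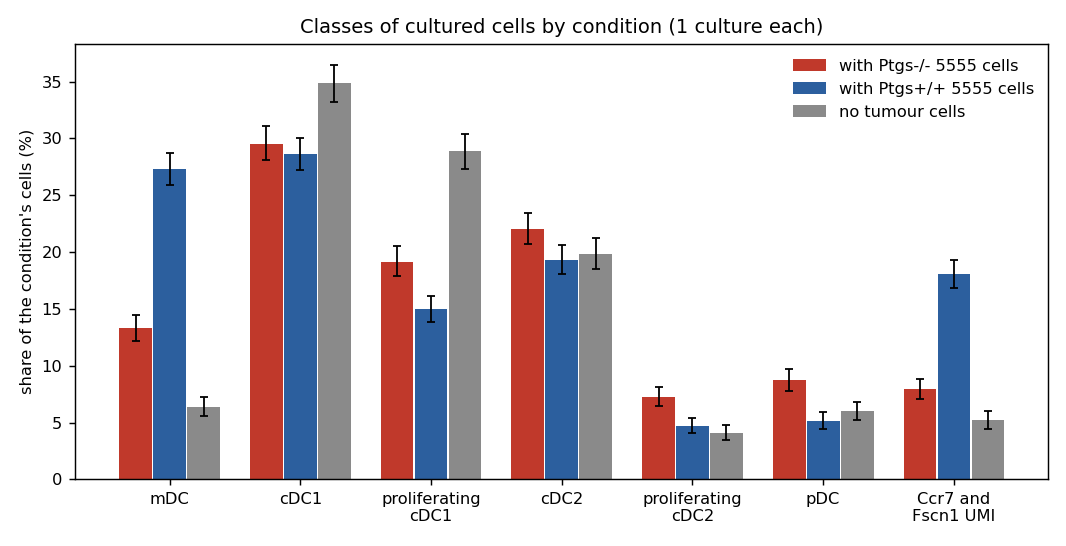
Share of each culture's cells (y axis, %) in each class of the authors' annotation and in cells with a UMI of both Ccr7 and Fscn1, for the Ptgs-/-, Ptgs+/+ and untreated cultures, 1 culture each; whiskers are exact 95% binomial intervals of counting error. CCR7+ DCs (mDC) stand at 13.3%, 27.3% and 6.40% in that order of cultures.

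Gene levels are the mean CPM over the cells of a class. A fold is the log2 of the ratio of 2 such means after 5 CPM was added to each, positive where the Ptgs-/- culture was higher, and understates differences of genes at low levels. Genes with a UMI in at least 10% of the cells of both tumour cultures combined were compared. A gene can therefore pass through the culture where it is higher, and the culture with more cells of the class weighs more. Several genes with large folds reached 10% only in the culture where they were higher, such as Tnfrsf9 in cDC1s and Btla in pDCs. Passing the filter adds no support to such folds. Higher or lower by at least 1.5-fold is a size here and not a test. The median fold of all genes lay between -0.02 and 0.06 in the 6 classes.

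In CCR7+ DCs Il1b, which encodes the inflammatory cytokine interleukin-1β, had the lowest fold. It averaged 159 CPM in the Ptgs-/- culture, against 566 CPM in the Ptgs+/+ culture and 125 CPM in the untreated culture. The fold was -1.80 and the ratio of summed UMIs 0.304 (95% interval 0.279 to 0.332), so that the Ptgs-/- culture stood near the untreated one. Cells with an Il1b UMI were 24.9% (Ptgs-/-), 53.02% (Ptgs+/+) and 21.96% (untreated) of the class, and 23.4% (Ptgs-/-), 49.6% (Ptgs+/+) and 17.6% (untreated) after thinning to 5000 UMIs. In pDCs 2.24% (Ptgs-/-), 2% (Ptgs+/+) and 0.5% (untreated) of cells had an Il1b UMI, at medians of 3712 UMIs (Ptgs-/-) and 4139 UMIs (Ptgs+/+) per pDC, against 7317 and 7264 UMIs per CCR7+ DC. Fewer cells that express a gene and less RNA per cell are not told apart by a mean, but both the share and the mean were lower here.

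Of 4474 genes compared in CCR7+ DCs, 53 (1.18%) were higher and 54 (1.21%) lower by at least 1.5-fold. Apol7c, an apolipoprotein L family gene, averaged 48.97 CPM (Ptgs-/-), 120.3 CPM (Ptgs+/+) and 161 CPM (untreated), a fold of -1.22. It is also a marker of the class, so its level and the make-up of the class cannot be told apart. Plek2, a pleckstrin family gene, averaged 18.8 CPM (Ptgs-/-), 45.4 CPM (Ptgs+/+) and 8.55 CPM (untreated), a fold of -1.08. C1qtnf6, Gcsam and Cstdc4 were lower, with folds of -1.07 to -0.96. These genes, Apol7c and Plek2 reached 10% of cells only in the Ptgs+/+ culture and passed the filter through it. The calprotectin genes S100a8 and S100a9, which are neutrophil markers, completed the 8 lowest. S100a9 averaged 36.7 CPM (Ptgs-/-), 82.9 CPM (Ptgs+/+) and 386 CPM (untreated), a fold of -1.08, and stood at 0.29 once cells with a UMI of another lineage were left out.

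The highest folds belonged to genes of several roles. Epsti1, an interferon-responsive gene, averaged 115 CPM (Ptgs-/-), 47.4 CPM (Ptgs+/+) and 156 CPM (untreated), a fold of 1.19 and a ratio of summed UMIs of 2.05 (95% interval 1.75 to 2.395). Atf3, a stress-induced transcription factor, averaged 89.6 CPM (Ptgs-/-), 36.8 CPM (Ptgs+/+) and 36.6 CPM (untreated), a fold of 1.18 and a ratio of 2.16 (95% interval 1.86 to 2.51). In Epsti1 the Ptgs+/+ culture was the lowest, and in Atf3 the Ptgs-/- culture stood above both others. Wfdc17, a small secreted WAP domain protein gene, averaged 136 CPM (Ptgs-/-), 59.9 CPM (Ptgs+/+) and 89.6 CPM (untreated), a fold of 1.12. The tRNA synthetase gene Eprs, the Hsp70 gene Hspa1b, the chemokine gene Ccl6, the selenoprotein gene Selenoh and Cybb, the catalytic subunit of the phagocyte oxidase, were higher, with folds of 0.88 to 1.03. Ccl6 had a fold of 0.48 with summed UMIs in place of means over cells. Hspa1b, Ccl6 and Cybb reached 10% of cells only in the Ptgs-/- culture.

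**Figure D2:**
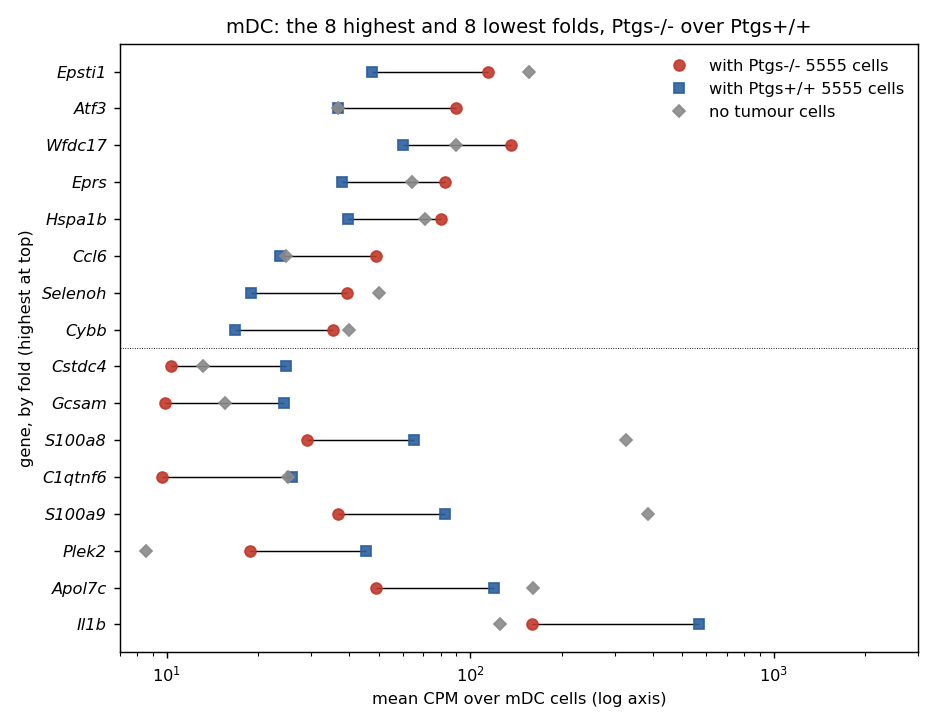
Mean CPM over CCR7+ DCs (x axis, log scale) of the 8 genes with the highest and the 8 with the lowest folds (y axis), in the Ptgs-/- (circles), Ptgs+/+ (squares) and untreated (diamonds) cultures, 1 culture each. Il1b, at 159 CPM in the Ptgs-/- culture and 566 CPM in the Ptgs+/+ culture, has the widest gap of the lower genes.

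Of 33 genes of DC maturation and migration, 0 were higher and 2 lower, Apol7c and the protease inhibitor gene Serpinb6b at -0.69, and the median was -0.17, beside 0.02 for all genes and 1.21% of all genes lower. Of these 33 genes 22 were below 0 and 11 above it, and of the 12 CCR7+ mature DC markers 11 were below 0 and 1 above it. Ccr7 averaged 1131 CPM (Ptgs-/-), 1478 CPM (Ptgs+/+) and 854 CPM (untreated), a fold of -0.39. Fscn1 averaged 474 CPM (Ptgs-/-), 538 CPM (Ptgs+/+) and 595 CPM (untreated), a fold of -0.18. Both were within 1.5-fold between the tumour cultures, while the share of cells in the class differed by more. Ccr7, Fscn1 and the other markers also mark the class, so their level and its make-up cannot be told apart. Of 10 co-stimulatory genes 2 were lower and 0 higher. Cd70, the ligand of CD27, averaged 76.4 CPM (Ptgs-/-), 125 CPM (Ptgs+/+) and 47.2 CPM (untreated), a fold of -0.67. Cd40, the receptor for T cell help, averaged 44.3 CPM (Ptgs-/-), 70.7 CPM (Ptgs+/+) and 31.03 CPM (untreated), a fold of -0.62 that was -0.48 with summed UMIs. Cd80 and Cd86, the ligands of CD28, had folds of 0.15 and -0.40.

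Of 20 genes by which mature DCs attract and instruct lymphocytes only 7 were compared, and 0 of these 7 were higher or lower by 1.5-fold. Ccl5, which attracts T cells, averaged 5049 CPM (Ptgs-/-), 3446 CPM (Ptgs+/+) and 3192 CPM (untreated), a fold of 0.55. Ccl22, which attracts CCR4+ T cells, averaged 2407 CPM (Ptgs-/-), 3332 CPM (Ptgs+/+) and 2115 CPM (untreated), a fold of -0.47. These 2 chemokine genes had folds of opposite sign. Il12b, an interleukin-12 subunit, averaged 239 CPM (Ptgs-/-), 202 CPM (Ptgs+/+) and 38.8 CPM (untreated), a fold of 0.23, and was found in 17.4% (Ptgs-/-), 18.2% (Ptgs+/+) and 10.3% (untreated) of cells. Both tumour cultures were above the untreated one in Il12b. Il12a, Il15, Cxcl9 and Cxcl10 were in under 10% of cells and were not compared, with 9 UMIs (Ptgs-/-) and 27 UMIs (Ptgs+/+) for Cxcl9 and 12 UMIs (Ptgs-/-) and 127 UMIs (Ptgs+/+) for Cxcl10. The class held 3623789 UMIs (Ptgs-/-) and 8264817 UMIs (Ptgs+/+) in all. Per UMI of the class, Cxcl10 was thus lower with Ptgs-/- tumour cells, on few molecules.

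Of 13 regulatory and inhibitory genes in CCR7+ DCs, 1 was lower and 0 higher, beside 1.21% of all genes lower and 1.18% higher. The lower gene was Pdcd1lg2, which encodes PD-L2, with 36.2 CPM (Ptgs-/-), 58.8 CPM (Ptgs+/+) and 31.1 CPM (untreated), a fold of -0.63. Cd274, which encodes PD-L1, averaged 233 CPM (Ptgs-/-), 265 CPM (Ptgs+/+) and 168 CPM (untreated), a fold of -0.18. Il4i1, an amino acid oxidase gene, averaged 873 CPM (Ptgs-/-), 1305 CPM (Ptgs+/+) and 752 CPM (untreated), a fold of -0.58 just within 1.5-fold. Of 21 genes of tumour-promoting inflammation only 4 were compared, and 3 were lower, Il1b and the calprotectin genes. Cells with a UMI were 19.9% (Ptgs-/-) and 18.2% (Ptgs+/+) for S100a9 and 13.6% (Ptgs-/-) and 14.9% (Ptgs+/+) for S100a8. With mean log2 values the differences were 0.14 for S100a9 and -0.06 for S100a8, so these 2 calls depend on the measure. Il6 and Tnf were in under 10% of cells, with 64 UMIs (Ptgs-/-) and 148 UMIs (Ptgs+/+) for Il6 and 58 UMIs (Ptgs-/-) and 82 UMIs (Ptgs+/+) for Tnf. The class held 3623789 UMIs (Ptgs-/-) and 8264817 UMIs (Ptgs+/+) in all. Per UMI of the class, Il6 was about level and Tnf was higher with Ptgs-/- tumour cells. Of 18 genes of cholesterol synthesis, 3 were lower and 0 higher, the enzymes Sqle, Fdps and Mvk at -0.69 to -0.60, with a median of -0.31. Beside them stand 1.21% of all genes lower and a median of 0.02. Fdps averaged 156 CPM (Ptgs-/-), 245 CPM (Ptgs+/+) and 203 CPM (untreated). The lower cholesterol list was not particular to CCR7+ DCs. In proliferating cDC1s its median was -0.32, with 21 of 22 genes below 0. Below 0 were also 20 of 23 in cDC2s, 19 of 24 in the cluster labelled proliferating cDC2 and 10 of 14 in pDCs. In cDC1s 8 of 21 were below 0 and 13 above it.

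In cDC1s several genes of cDC1 identity were higher with Ptgs-/- tumour cells. Of 5299 genes compared, 35 (0.661%) were higher and 47 (0.887%) lower, while of 25 genes of cDC1 identity and cross-presentation 4 were higher and 0 lower, with a median of 0.28 beside 0.06 for all genes. Naaa, an acid amidase gene that marks cDC1s, averaged 824 CPM in the Ptgs-/- culture, against 462 CPM in the Ptgs+/+ culture and 1246 CPM in the untreated culture. Its fold was 0.83 and the ratio of summed UMIs 1.74 (95% interval 1.68 to 1.81). Wdfy4, which cross-presentation requires, averaged 293 CPM (Ptgs-/-), 183 CPM (Ptgs+/+) and 473 CPM (untreated), a fold of 0.67. In these genes, and in Ppt1 (0.81) and Cd36 (0.65), the Ptgs-/- culture lay between the untreated and the Ptgs+/+ culture. The chemokine receptor gene Xcr1 averaged 81.1 CPM (Ptgs-/-), 56 CPM (Ptgs+/+) and 169.6 CPM (untreated), a fold of 0.50. Clec9a, a receptor for dead cells, and Batf3, a cDC1 transcription factor, had folds of 0.16 and 0.35.

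In proliferating cDC1s several identity genes were also higher, with 7 of 25 identity genes higher and 0 lower and a median of 0.32 beside 0.03 for all genes. Of the 6609 genes compared in the class, 50 (0.757%) were higher and 66 (0.999%) lower. Naaa averaged 585 CPM (Ptgs-/-), 258 CPM (Ptgs+/+) and 1131 CPM (untreated), a fold of 1.16. Xcr1 averaged 76.3 CPM (Ptgs-/-), 42.7 CPM (Ptgs+/+) and 165 CPM (untreated), a fold of 0.77. Irf8, the transcription factor on which cDC1s depend, averaged 785 CPM (Ptgs-/-), 502 CPM (Ptgs+/+) and 1409 CPM (untreated), a fold of 0.64, or 0.52 with summed UMIs. In all 7 genes the Ptgs-/- culture lay between the other cultures. Markers such as Xcr1 and Naaa also define the class, so their level per cell and the make-up of the class cannot be told apart.

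**Figure D3:**
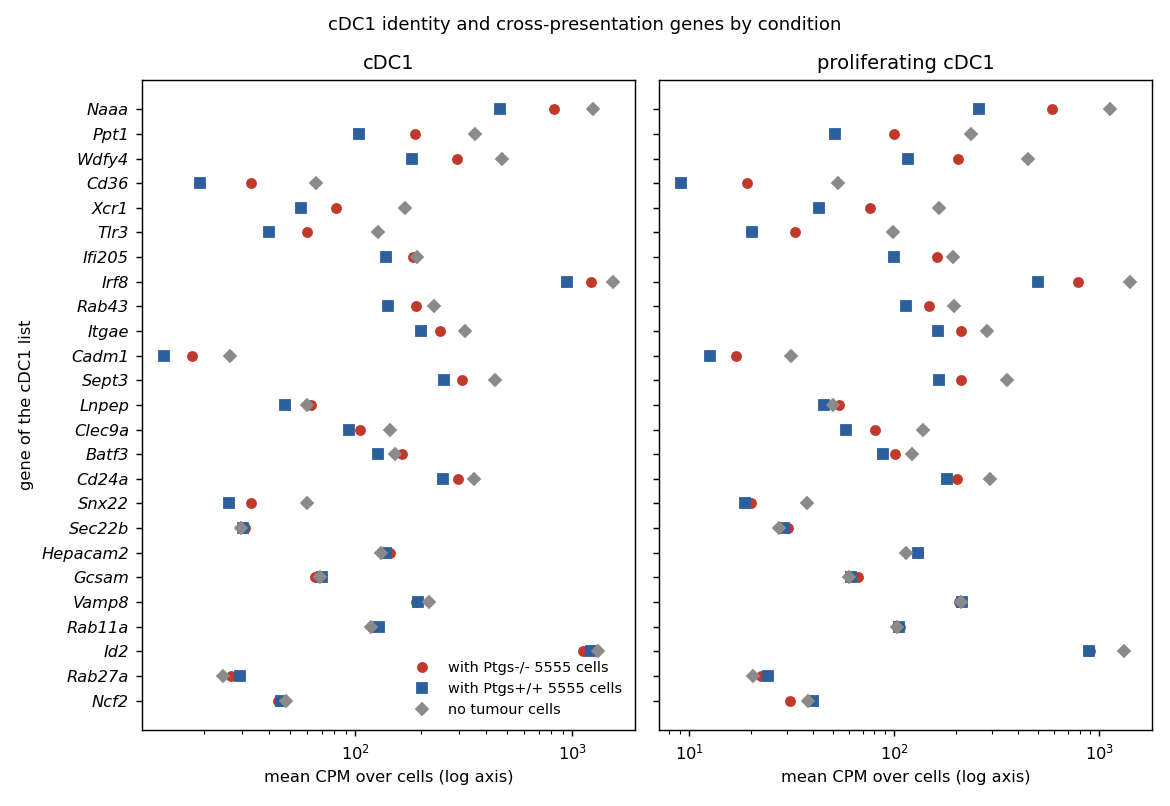
Mean CPM (x axis, log scale) of the 25 genes of cDC1 identity and cross-presentation that were compared (y axis), in cDC1s and in proliferating cDC1s (panels), for the Ptgs-/-, Ptgs+/+ and untreated cultures, 1 culture each. For Naaa, Ppt1, Wdfy4, Cd36 and Xcr1 the Ptgs-/- point lies between the Ptgs+/+ and the untreated point in both panels.

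Other genes were higher in both cDC1 classes. Ccr2, a chemokine receptor gene of monocytes and DC precursors, averaged 139 CPM (Ptgs-/-), 64.7 CPM (Ptgs+/+) and 262 CPM (untreated) in cDC1s, a fold of 1.05, and had a fold of 1.09 in proliferating cDC1s. Clec12a, an inhibitory lectin receptor gene, averaged 41.4 CPM (Ptgs-/-), 19.9 CPM (Ptgs+/+) and 75.7 CPM (untreated) in cDC1s, a fold of 0.90, and had a fold of 1.18 in proliferating cDC1s. The Ptgs-/- culture lay between the other cultures for both genes in both classes. Ccr2 and Clec12a are on the list of cDC2 identity genes. Of 15 genes of that list compared in cDC1s 2 were higher and 1 lower, with a median of -0.10, beside 0.661% of all genes higher. In proliferating cDC1s 2 of 15 were higher and 0 lower, with a median of -0.21. Cd180, Slamf9 and Lacc1 were higher in cDC1s, with folds of 0.82 to 0.93. S100a8 and S100a9 completed the 8 highest there, at 1.01 and 0.85. Cells with a UMI were 16.8% (Ptgs-/-), 14.6% (Ptgs+/+) and 17% (untreated) for S100a8 and 20.96% (Ptgs-/-), 20.3% (Ptgs+/+) and 20.3% (untreated) for S100a9, and with mean log2 values the differences were 0.19 and 0.10, short of 1.5-fold. The 7 neutrophil markers, of which these 2 alone were compared, summed to 592 CPM (Ptgs-/-), 300.0 CPM (Ptgs+/+) and 299 CPM (untreated). In proliferating cDC1s Arsb, Phf11a, Phgdh and Laptm4b were higher, with folds of 0.88 to 1.08. Of 37 cell cycle genes 2 were higher there and 0 lower, the helicase subunit genes Mcm2 (0.72) and Mcm4 (0.59), with a median of 0.19. Of all genes in that class 0.757% were higher, with a median of 0.03.

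Several genes of maturation and of NF-kB signalling were lower in proliferating cDC1s. Of all genes compared in this class 0.999% were lower and 0.757% higher, with a median of 0.03. Of 18 maturation genes 6 were lower and 1 higher, with a median of -0.41. Ccr7 averaged 22.2 CPM in the Ptgs-/- culture, against 86.4 CPM in the Ptgs+/+ culture and 28.3 CPM in the untreated culture. Its fold was -1.75 and the ratio of summed UMIs 0.2703 (95% interval 0.2303 to 0.316), the Ptgs-/- culture being near the untreated one. Cells with a Ccr7 UMI were 10.5% (Ptgs-/-), 21.3% (Ptgs+/+) and 11.5% (untreated) of the class, and 5.76% (Ptgs-/-), 16.2% (Ptgs+/+) and 6.93% (untreated) after thinning. Ccl22 averaged 26.9 CPM (Ptgs-/-), 78.1 CPM (Ptgs+/+) and 41.6 CPM (untreated), a fold of -1.38. The other 4 were Serpinb6b, Gadd45b, Samsn1 and Marcksl1, at -0.82 to -0.66. Of 23 NF-kB pathway genes 4 were lower and 0 higher, the inhibitor genes Nfkbie (-1.16) and Nfkbia (-0.80), the adaptor gene Traf1 (-0.84) and Bcl3 (-0.68). CCR7+ mature DC markers summed to 165 CPM (Ptgs-/-), 362 CPM (Ptgs+/+) and 206 CPM (untreated) in this class, and the part of cells near the border with CCR7+ DCs was not tested.

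Among the 8 lowest folds in cDC1s was that of Tnfrsf9. This gene, which encodes the receptor 4-1BB, averaged 8.15 CPM (Ptgs-/-), 35.1 CPM (Ptgs+/+) and 4.18 CPM (untreated), a fold of -1.61. Klrd1, which encodes the CD94 chain of NK receptors, averaged 41.4 CPM (Ptgs-/-), 119.5 CPM (Ptgs+/+) and 21.9 CPM (untreated), a fold of -1.42. Ramp3, which modifies calcitonin-type receptors, averaged 37.1 CPM (Ptgs-/-), 104 CPM (Ptgs+/+) and 9.15 CPM (untreated), a fold of -1.37. For these genes the Ptgs-/- culture lay between the untreated and the Ptgs+/+ culture. Csta2, a stefin family gene, averaged 94.6 CPM (Ptgs-/-), 263 CPM (Ptgs+/+) and 41.4 CPM (untreated), a fold of -1.43, and its relative Cstdc4 had -1.25. The stefin A family has near-identical copies, so the split of their reads is uncertain. Ccr7 (-1.11), Pld3 (-1.14) and Ears2 (-1.08) completed the 8.

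Proliferating cDC1s shared several of these genes. Klrd1 averaged 28.02 CPM (Ptgs-/-), 110.1 CPM (Ptgs+/+) and 24.7 CPM (untreated), a fold of -1.80, and Ramp3, Ears2, Tnfrsf9 and Hopx had -1.61 to -1.32. Il1b averaged 35.5 CPM (Ptgs-/-), 107 CPM (Ptgs+/+) and 10.7 CPM (untreated) there, a fold of -1.47, and 40.9 CPM (Ptgs-/-), 82.4 CPM (Ptgs+/+) and 9.58 CPM (untreated) in cDC1s, a fold of -0.93. So Il1b was lower with Ptgs-/- tumour cells in both cDC1 classes as in CCR7+ DCs. Il1r2, the decoy receptor of interleukin-1, averaged 272 CPM (Ptgs-/-), 528 CPM (Ptgs+/+) and 131 CPM (untreated) in cDC1s, a fold of -0.94. Cd274 averaged 22.1 CPM (Ptgs-/-), 40.5 CPM (Ptgs+/+) and 5.75 CPM (untreated) in cDC1s, a fold of -0.74, and had -0.97 in proliferating cDC1s.

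Conventional cDC2s had the fewest genes past 1.5-fold. Of 6119 genes compared, 9 (0.147%) were higher and 29 (0.474%) lower. The Hsp70 gene Hspa1a averaged 159 CPM in the Ptgs-/- culture, against 67.1 CPM in the Ptgs+/+ culture and 11.5 CPM in the untreated culture. Its fold was 1.19 and the ratio of summed UMIs 2.75 (95% interval 2.48 to 3.06). Hspa1b, a near-identical copy whose reads may not be separable, had 0.78. The chemokine gene Ccl4 averaged 59.1 CPM (Ptgs-/-), 29.4 CPM (Ptgs+/+) and 12.96 CPM (untreated), a fold of 0.90. Cells with a Ccl4 UMI were 11.9% (Ptgs-/-), 11.5% (Ptgs+/+) and 5.28% (untreated) of the class, and with mean log2 values the difference was 0.09, short of 1.5-fold. In both Hspa1a and Ccl4 the Ptgs-/- culture was the highest of the 3. Gla, Hcar2, Clec12a, Nupr1 and Tank were higher, with folds of 0.60 to 0.83.

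The lower genes of cDC2s included some of those of cDC1s. Tnfrsf9 averaged 60 CPM (Ptgs-/-), 143 CPM (Ptgs+/+) and 20.01 CPM (untreated), a fold of -1.18. Klrd1 averaged 119 CPM (Ptgs-/-), 241 CPM (Ptgs+/+) and 89.1 CPM (untreated), a fold of -0.99. For both the Ptgs-/- culture lay between the untreated and the Ptgs+/+ culture. Lyz2, the lysozyme gene, averaged 71.2 CPM (Ptgs-/-), 169 CPM (Ptgs+/+) and 150.0 CPM (untreated), a fold of -1.19, which was -0.56 without cells that had a UMI of another lineage. Gem, a small GTPase gene, and Egr1, an immediate-early gene, had -1.17 and -0.95, and Csta2, Ccl22 and Ncf4 had -0.93 to -0.77. Id2, a transcriptional regulator of DC development, averaged 361 CPM (Ptgs-/-), 613 CPM (Ptgs+/+) and 661 CPM (untreated), a fold of -0.76. Of 21 cDC2 identity genes 1 was higher (Clec12a) and 1 lower (Lyz2), with a median of 0.02 beside -0.02 for all genes.

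In the cluster labelled proliferating cDC2, 162 of 7112 genes (2.28%) were higher and 136 (1.91%) lower, on a median of 165 UMIs per gene. S100a9 averaged 608 CPM (Ptgs-/-), 2944 CPM (Ptgs+/+) and 466 CPM (untreated), a fold of -2.27, and S100a8 had -2.19. The neutrophil markers summed to 1136 CPM (Ptgs-/-), 5673 CPM (Ptgs+/+) and 860.0 CPM (untreated) and the progenitor markers to 236 CPM (Ptgs-/-), 401 CPM (Ptgs+/+) and 71.6 CPM (untreated), and their part in the other folds of the cluster was not tested. Klrd1 averaged 43.3 CPM (Ptgs-/-), 198 CPM (Ptgs+/+) and 64.1 CPM (untreated), a fold of -2.07, and Tnfrsf9 averaged 12.2 CPM (Ptgs-/-), 64.01 CPM (Ptgs+/+) and 11.7 CPM (untreated), a fold of -2.0. These 2 were thus lower in this cluster as in both cDC1 classes and in cDC2s. Upp1, Klrk1, Sla2 and Gbe1 had -1.50 to -1.26, and Gbe1 had -0.17 after thinning.

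Among the higher genes of that cluster, Lpl, the lipoprotein lipase gene, averaged 110.2 CPM (Ptgs-/-), 27.3 CPM (Ptgs+/+) and 81.02 CPM (untreated), a fold of 1.83 and a ratio of summed UMIs of 3.34 (95% interval 2.65 to 4.25). Slpi, a secreted protease inhibitor gene, averaged 411 CPM (Ptgs-/-), 144 CPM (Ptgs+/+) and 95.4 CPM (untreated), a fold of 1.48. In Lpl and Slpi the Ptgs-/- culture was the highest. Zfp512 (1.84) and Hspa1a (1.40) were among the highest too, and Tmem229b, Arsb, Il2ra and Ago1 had 1.12 to 1.22.

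In pDCs several interferon-stimulated genes were higher with Ptgs-/- tumour cells. Of 3904 genes compared, 258 (6.61%) were higher and 118 (3.02%) lower, on a median of 126 UMIs per gene, the fewest of the 6 classes. Of 20 type I interferon-stimulated genes 8 were higher and 0 lower, with a median of 0.47 beside 0.05 for all genes. Irf7, the regulator of interferon genes, averaged 115 CPM (Ptgs-/-), 61.6 CPM (Ptgs+/+) and 155 CPM (untreated), a fold of 0.85. Isg15, a ubiquitin-like modifier gene, averaged 205 CPM (Ptgs-/-), 126 CPM (Ptgs+/+) and 212 CPM (untreated), a fold of 0.68. The Ptgs+/+ culture was the lowest of the 3 for both genes. Slfn5, Slfn8, Oasl2 and Ifi44 had 0.70 to 0.95. Usp18, which removes Isg15 from proteins, had the highest at 1.37 from 69 UMIs (Ptgs-/-) and 18 UMIs (Ptgs+/+), but 0.14 in the 72 and 73 cells that could be thinned to 5000 UMIs, where the list's median was 0.34.

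Of 15 genes of MHC class I presentation 4 were higher in pDCs and 0 lower, with a median of 0.36, beside 6.61% of all genes higher and a median of 0.05. Tap1, a subunit of the peptide transporter, averaged 119.8 CPM (Ptgs-/-), 70.6 CPM (Ptgs+/+) and 100.8 CPM (untreated), a fold of 0.72. Tap2 had 0.63, and H2-Q7 and H2-T22, class I genes with near-identical relatives whose counts are uncertain, had 0.90 and 0.61. In the other 5 classes 0 genes of this list passed 1.5-fold, and at most 1 interferon-stimulated gene did. Fewer of all genes were higher there too, 0.661% in cDC1s for example. Smaller positive folds of interferon-stimulated genes were not limited to pDCs. In cDC1s 22 of 23 were above 0 (median 0.24, all genes 0.06), and in proliferating cDC1s 20 of 23 (median 0.17, all genes 0.03). In the remaining classes the medians were -0.01 to 0.09. The difference between classes was not tested.

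The promoter of Isg15 is printed because that gene stands for the pDC group. It runs from 250 bases before to 50 bases after the RefSeq gene start, at chr4:156200769-156201068 of GRCm38.p6, minus strand, 5′ to 3′. Capitals mark matches to GAAA, any 2 bases and GAAA again, a motif of the interferon-response type, searched on both strands with overlaps allowed.
Isg15: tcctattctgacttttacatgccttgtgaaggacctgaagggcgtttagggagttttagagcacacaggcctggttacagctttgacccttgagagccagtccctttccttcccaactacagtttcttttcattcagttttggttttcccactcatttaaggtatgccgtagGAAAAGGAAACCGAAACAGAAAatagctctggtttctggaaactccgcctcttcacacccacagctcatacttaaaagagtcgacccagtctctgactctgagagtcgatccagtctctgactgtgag
The window holds 3 matches. The motif is in the promoters of 16 of the 29 type I interferon-stimulated genes of the list that are in the table (55.2%), of 3 of the 6 in the table that were higher in pDCs (Isg15, Slfn5 and Slfn8), and of 1079 of 27025 genes in all (3.99%). A match describes letters and is not a measured site.

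Other pDC genes at the ends of the ranking rested on few molecules. Upb1, a gene of pyrimidine breakdown, averaged 98.8 CPM (Ptgs-/-), 32.5 CPM (Ptgs+/+) and 172 CPM (untreated), a fold of 1.47 from 118 UMIs (Ptgs-/-) and 25 UMIs (Ptgs+/+). Btla, Sp1, Trim30b, Prkca and Igsf8 had 1.2 to 1.34, and after thinning Prkca had -0.14 and Trim30b 0.29. S100a8 averaged 1146 CPM (Ptgs-/-), 4388 CPM (Ptgs+/+) and 673 CPM (untreated), a fold of -1.93, and cells with an S100a8 UMI were 13.5% (Ptgs-/-), 21% (Ptgs+/+) and 14.5% (untreated) of the class. The neutrophil markers summed to 3988 CPM (Ptgs-/-), 12034 CPM (Ptgs+/+) and 1773 CPM (untreated). Spp1, Ifitm6, S100a9, Anxa1, Ifitm2, Eva1b and Kdm5c had -1.83 to -1.12. Without cells that had a UMI of another lineage, Spp1 had -0.40, Ifitm6 -0.41, Anxa1 -0.18 and S100a9 0.20, so these 4 calls were lost without such cells. The cells left out include all those with an S100a8 UMI, so the S100a9 value is partly set by that choice.

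Some genes differed in the same direction in several classes. The classes share no cells but come from the same cultures and library, so agreement between them is not replication. Of 5292 genes compared in at least 4 classes, 1 was higher by at least 1.5-fold in 4 or more of them, Clec12a, and 14 were lower. In at least 5 classes 0 were higher and 4 lower, and in all 6 classes 0 of 3279 passed either way. The 14 were Csta2, Ifitm1, Ifitm2, Ifitm6, Klrd1, Lyz2, Mpc1, Pld3, Ramp3, S100a8, S100a9, S100a11, Tcn2 and Tnfrsf9. Klrd1 was lower in 5 classes and had -0.19 in CCR7+ DCs. Tnfrsf9 was lower in 4 of 5 classes and had -0.38 in CCR7+ DCs, where it averaged 237 CPM (Ptgs-/-), 310.3 CPM (Ptgs+/+) and 176 CPM (untreated). Ramp3 was lower in all 4 classes that compared it, at -1.61 to -0.66, and averaged 476 CPM (Ptgs-/-), 845 CPM (Ptgs+/+) and 286 CPM (untreated) in CCR7+ DCs. S100a8 and S100a9 broke the common sign, being higher in cDC1s.

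Mpc1, a subunit of the mitochondrial pyruvate carrier, averaged 321 CPM (Ptgs-/-), 555 CPM (Ptgs+/+) and 192 CPM (untreated) in cDC1s, and its folds over the 6 classes were -0.90 to -0.41. Tcn2, the vitamin B12 carrier transcobalamin, averaged 43.7 CPM (Ptgs-/-), 80.2 CPM (Ptgs+/+) and 19.1 CPM (untreated) in cDC1s, and its folds were -0.94 to -0.53. For both the Ptgs-/- culture lay between the other cultures in cDC1s. S100a11, a calcium-binding protein gene, had folds of -0.79 to -0.27. Csta2 was lower in all 5 classes that compared it, at -1.43 to -0.91, but had -0.04 in the cluster labelled proliferating cDC2 without cells that had a UMI of another lineage. Lyz2 likewise had -0.22 there and -0.25 in pDCs.

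**Figure D4:**
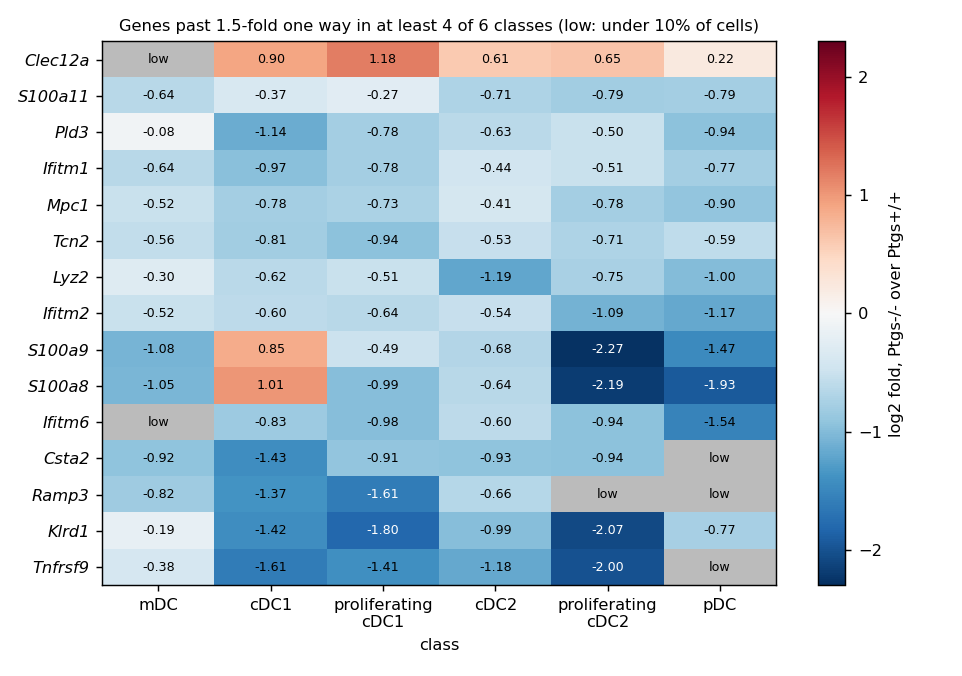
Log2 fold of mean CPM, Ptgs-/- over Ptgs+/+ culture (colour and printed value), of the 15 genes (y axis) past 1.5-fold in the same direction in at least 4 of the 6 classes (x axis), 1 culture a side; low marks classes where under 10% of cells held the gene. Clec12a is positive in each class that compared it, and S100a8 and S100a9 are positive in cDC1s and negative in the other classes.

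Ifitm1, Ifitm2 and Ifitm6 of these 14, and their neighbour Ifitm3, encode small membrane proteins that restrict the entry of viruses and are induced by interferons. In cDC1s Ifitm1 averaged 9942 CPM in the Ptgs-/- culture, against 19433 CPM in the Ptgs+/+ culture and 3696 CPM in the untreated culture. The fold was -0.97 and the ratio of summed UMIs 0.519 (95% interval 0.514 to 0.523). In cDC2s it averaged 12624 CPM (Ptgs-/-), 17115 CPM (Ptgs+/+) and 7840.4 CPM (untreated), a fold of -0.44, and in CCR7+ DCs 4967 CPM (Ptgs-/-), 7751 CPM (Ptgs+/+) and 4549 CPM (untreated), a fold of -0.64 that was -0.47 with summed UMIs. In all 6 classes the Ptgs-/- culture lay between the untreated culture, which was lowest, and the Ptgs+/+ culture. Ifitm2 averaged 2403 CPM (Ptgs-/-), 3653 CPM (Ptgs+/+) and 768 CPM (untreated) in cDC1s and had folds of -1.17 to -0.52 over the 6 classes. Ifitm3 averaged 3895 CPM (Ptgs-/-), 6008 CPM (Ptgs+/+) and 1762 CPM (untreated) in cDC1s and had -0.78 to -0.37. Ifitm6 was rarer, at 77.5 CPM (Ptgs-/-), 142 CPM (Ptgs+/+) and 18.8 CPM (untreated) in cDC1s, with -1.54 to -0.60 over 5 classes. The 4 genes are close relatives, and reads that fit several of them may have been split or dropped in the authors' counting. These interferon-induced genes had negative folds in pDCs, where the list of type I interferon-stimulated genes, which does not hold them, had a positive median.

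The 4 genes lie within 62.1 kb of mouse chromosome 7, from 140954837 to 141016892 on GRCm38.p6, in the order Ifitm2, Ifitm1, Ifitm3 and Ifitm6. Their promoters are printed because these neighbours had folds of the same sign in every class that compared them. Each runs from 250 bases before to 50 bases after the start used in the RefSeq promoter table, 5′ to 3′ on the gene's strand, with matches to the same GAAA, 2 bases, GAAA motif in capitals. Ifitm2 is at chr7:140955912-140956211 (minus strand), Ifitm1 at chr7:140967826-140968125 (plus strand), Ifitm3 at chr7:141010695-141010994 (minus strand) and Ifitm6 at chr7:141016843-141017142 (minus strand). For Ifitm3 and Ifitm6 that start is the outer end of the RefSeq gene. For Ifitm1 and Ifitm2 it lies 647 and 3725 bases inside the RefSeq gene, and 36 and 26 bases from the nearest transcript start in GENCODE M21, so the sequence before the outer start of these 2 genes was not searched.
Ifitm2: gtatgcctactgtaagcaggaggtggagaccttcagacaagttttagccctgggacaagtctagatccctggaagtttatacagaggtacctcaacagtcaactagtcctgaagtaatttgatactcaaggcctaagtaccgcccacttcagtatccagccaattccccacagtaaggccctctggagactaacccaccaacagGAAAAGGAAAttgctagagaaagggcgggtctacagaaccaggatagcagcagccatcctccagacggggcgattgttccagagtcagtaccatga
Ifitm1: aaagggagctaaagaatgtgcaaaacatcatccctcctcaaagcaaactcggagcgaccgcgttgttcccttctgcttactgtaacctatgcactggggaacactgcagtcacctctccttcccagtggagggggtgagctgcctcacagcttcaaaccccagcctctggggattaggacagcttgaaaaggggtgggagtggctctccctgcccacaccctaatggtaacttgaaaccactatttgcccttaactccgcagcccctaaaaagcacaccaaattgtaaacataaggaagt
Ifitm3: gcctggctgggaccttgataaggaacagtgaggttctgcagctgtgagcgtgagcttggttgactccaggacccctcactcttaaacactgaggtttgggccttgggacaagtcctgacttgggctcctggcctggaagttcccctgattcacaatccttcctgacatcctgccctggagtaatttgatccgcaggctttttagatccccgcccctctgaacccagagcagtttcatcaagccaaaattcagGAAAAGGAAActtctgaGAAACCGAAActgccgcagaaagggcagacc
Ifitm6: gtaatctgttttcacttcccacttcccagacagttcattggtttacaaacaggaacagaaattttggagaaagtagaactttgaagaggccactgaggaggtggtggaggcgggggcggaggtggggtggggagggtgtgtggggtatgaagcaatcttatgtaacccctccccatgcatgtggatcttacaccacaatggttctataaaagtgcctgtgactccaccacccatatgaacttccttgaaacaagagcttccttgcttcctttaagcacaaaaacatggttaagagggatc
Ifitm2 holds 1 match, Ifitm3 holds 2, and these letters are not in the windows of Ifitm1 and Ifitm6. Of the 14 lower genes 12 had a promoter in the table, and 2 of these hold the motif, Ifitm2 and Pld3. The cAMP-response element TGACGTCA, searched on both strands, is in 0 of the 12 and in 549 of 27025 genes in all (2.03%).

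Genes of the list for prostaglandin and cyclic AMP signalling were either lower or within 1.5-fold, and 0 were higher in any class. Lower were 1 of 17 in CCR7+ DCs, 3 of 17 in cDC1s, 5 of 19 in proliferating cDC1s, 1 of 16 in cDC2s, 6 of 18 in the cluster labelled proliferating cDC2 and 0 of 7 in pDCs. Of all genes 1.21%, 0.887%, 0.999%, 0.474%, 1.91% and 3.02% were lower in the same order of classes. The medians were -0.09, -0.12, -0.22, -0.05, -0.13 and -0.20, beside 0.02, 0.06, 0.03, -0.02, 0.03 and 0.05 for all genes. The list also holds the receptor genes Tnfrsf9 and Il1r2, which are not parts of the signalling pathway. Tnfrsf9 was the 1 lower gene in cDC2s, and both were among the lower genes of cDC1s, proliferating cDC1s and the cluster labelled proliferating cDC2. Ptgs1, here the DCs' own gene, averaged 41.6 CPM (Ptgs-/-), 84.7 CPM (Ptgs+/+) and 28.2 CPM (untreated) in cDC1s, a fold of -0.95, and 29.5 CPM (Ptgs-/-), 73.3 CPM (Ptgs+/+) and 38.8 CPM (untreated) in proliferating cDC1s, a fold of -1.18.

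The receptor gene Ptger4 averaged 82.4 CPM (Ptgs-/-), 67.2 CPM (Ptgs+/+) and 67.7 CPM (untreated) in CCR7+ DCs, a fold of 0.28. Ptger2 and Ptgs2 were in under 10% of these cells, with 7 UMIs (Ptgs-/-) and 11 UMIs (Ptgs+/+) for Ptger2 and 47 UMIs (Ptgs-/-) and 72 UMIs (Ptgs+/+) for Ptgs2. The class held 3623789 UMIs (Ptgs-/-) and 8264817 UMIs (Ptgs+/+) in all, so per UMI neither gene was lower with Ptgs-/- tumour cells. The cyclic AMP responsive genes Crem, Nr4a3 and Pde4b had -0.11 to 0.25 in CCR7+ DCs and so were within 1.5-fold, while the phosphodiesterase gene Pde4d averaged 11.01 CPM (Ptgs-/-), 21.2 CPM (Ptgs+/+) and 12.5 CPM (untreated), a fold of -0.71. In proliferating cDC1s Rgs1, a regulator of G protein signals, averaged 54.3 CPM (Ptgs-/-), 99.8 CPM (Ptgs+/+) and 14.04 CPM (untreated), a fold of -0.82. The orphan nuclear receptor gene Nr4a2 averaged 83.5 CPM (Ptgs-/-), 130.2 CPM (Ptgs+/+) and 22.4 CPM (untreated) there, a fold of -0.61. In both genes the Ptgs-/- culture lay between the other cultures.

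Over all 25 gene lists most medians lay close to the median of all genes. The heat shock and unfolded protein response list had a positive median in each class, from 0.13 in the cluster labelled proliferating cDC2 to 0.33 in proliferating cDC1s, and 0 of its genes were lower. The immediate-early list had a negative median in each class, from -0.40 in the cluster labelled proliferating cDC2 to -0.10 in cDC2s. The oxidative phosphorylation list, with 39 genes in each class, had medians from -0.02 to 0.01. Genes of MHC class II presentation held 0 members past 1.5-fold in any class, with medians from -0.11 to 0.17.

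**Figure D5:**
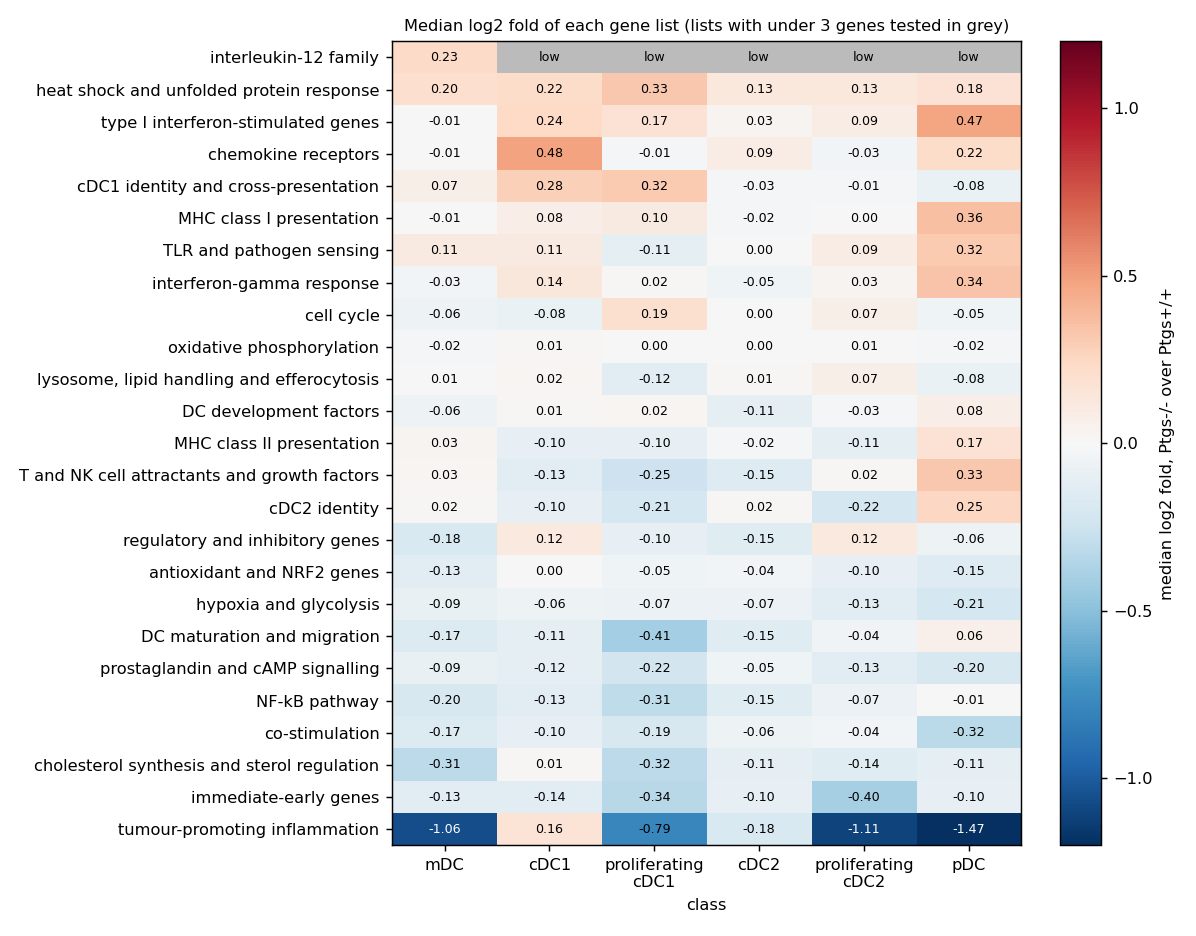
Median log2 fold of mean CPM, Ptgs-/- over Ptgs+/+ culture (colour and printed value), of each of 25 gene lists (y axis) in each class (x axis), 1 culture a side; grey marks lists with under 3 genes compared. Type I interferon-stimulated genes stand at 0.47 in pDCs, cDC1 identity genes at 0.28 in cDC1s and 0.32 in proliferating cDC1s, and DC maturation genes at -0.41 in proliferating cDC1s.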

How the data were processed

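Droplet 3' RNA profiles of 3 hashtagged DC cultures, run as 1 library, were analysed. The submitters' processing notes name the build mm10, the program Partek and Cell Ranger (version 3.0.2); their order and settings, the demultiplexing and the cell filters are not given in the sources used here. The authors deposited log2 values, log2(CPM + 1) per gene and cell, with an annotation that gives each cell's culture and DC class. These values were turned back into CPM (sums of 999983 to 1.00001e+06 per cell) and UMIs. Of the values above 0, 99.9418% came out whole within 0.1 UMI plus 0.01%, and 16 symbols with parts of a UMI were not named.

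Within each class, means of CPM over cells were compared as log2 folds with 5 CPM added, among genes with a UMI in at least 10% of the cells of both tumour cultures together, and 1.5-fold was used as a size. Folds were not centred, since all medians lay within 0.1. With 1 culture per condition no count test was possible. Intervals (95%) are exact binomial for shares and ratios of summed UMIs and log-normal approximations for ratios of shares, and cover counting error only. Named genes were the 8 highest and 8 lowest folds per class (leaving out receptor segments, haemoglobin, mitochondrial, ribosomal and predicted genes), the largest folds of each list described, genes past 1.5-fold in at least 4 classes, and a fixed set of DC genes. Some genes that this rule names are not reported here. The members and lists were chosen with earlier results of these data known. No doublet caller was run, and the 5% of cells with the most genes were left out as an alternative. Other alternatives were pseudocounts of 1 and 20 CPM, other filters, summed UMIs, mean log2 values, thinning to 5000 UMIs and leaving out cells with a UMI of another lineage, 17.6% of the Ptgs-/- and 17.9% of the Ptgs+/+ cells. The calculations were tested on simulated data. Python 3.11.15, numpy 2.4.6, scipy 1.17.1, pandas 2.3.3 and matplotlib 3.10.9 were used.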

Additional observations from a re-analysis of the deposited data

Results flagged for a closer look

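Ccl5, S100a8 and S100a9 differed by at least 1.5-fold in opposite directions between classes, and the difference between classes was not tested. Ccl5 had a log2 fold (Ptgs-/- over Ptgs+/+ culture) of -0.95 in cDC1s and -1.05 in the cluster labelled proliferating cDC2, against 1.13 in pDCs. S100a8 had 1.01 in cDC1s, against -1.05 in CCR7+ DCs, -0.99 in proliferating cDC1s, -0.64 in cDC2s, -2.19 in the cluster labelled proliferating cDC2 and -1.93 in pDCs. S100a9 had 0.85 in cDC1s, against -1.08 in CCR7+ DCs, -0.68 in cDC2s, -2.27 in the cluster labelled proliferating cDC2 and -1.47 in pDCs. S100a8 and S100a9 are the only 2 of 7 neutrophil markers that were compared. Cells with a UMI of another lineage include all those with an S100a8 UMI, so leaving them out removes that gene's counts by construction. Several of these directions turned with the processing: Ccl5 in pDCs stood at -0.46 with mean log2 values and -0.41 after thinning, S100a9 at 0.29 in CCR7+ DCs and 0.20 in pDCs without cells that had a UMI of another lineage and at 0.14 in CCR7+ DCs with mean log2 values, S100a9 in cDC2s at 0.065 with summed UMIs, and S100a8 in proliferating cDC1s at 0.00050 with mean log2 values. In cDC1s, where these 2 genes were higher, the differences of mean log2 values were 0.19 for S100a8 and 0.10 for S100a9.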

How the results depend on the processing

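Of the 164 named folds past 1.5-fold, which a pseudocount of 1 CPM or another filter cannot bring below it by construction, 40 fell short of it with mean log2 values, 35 at a pseudocount of 20 CPM, 26 without cells that had a UMI of another lineage, 22 after thinning, 21 with summed UMIs, 2 with another centring and 1 without the cells with the most genes; the cause was not tested. The 26 include S100a8 by construction, since every cell with an S100a8 UMI is left out there. Gene counts moved most, given here as higher and lower against the reported 53 and 54 in CCR7+ DCs, 35 and 47 in cDC1s, 50 and 66 in proliferating cDC1s, 9 and 29 in cDC2s, 162 and 136 in the cluster labelled proliferating cDC2, and 258 and 118 in pDCs, where they moved by over 1.5 times. At a pseudocount of 1 CPM they were 97 and 85 in CCR7+ DCs, 68 higher in cDC1s, 108 and 109 in proliferating cDC1s, 21 and 59 in cDC2s, and 318 and 239 in the cluster labelled proliferating cDC2. At 20 CPM they were 13 and 27, 10 and 28, 13 and 36, 3 and 12, 24 and 39, and 99 and 53, in the order of classes above. With mean log2 values they were 35 and 232 in CCR7+ DCs, 63 and 159 in cDC1s, 129 and 227 in proliferating cDC1s, 137 lower in cDC2s, 341 lower in the cluster labelled proliferating cDC2, and 137 and 343 in pDCs. With a 5% filter they were 123 and 86 in CCR7+ DCs, 58 higher in cDC1s, 247 and 224 in the cluster labelled proliferating cDC2, and 568 and 274 in pDCs. With no filter they were 251 and 133 in CCR7+ DCs, 77 higher in cDC1s, 105 lower in proliferating cDC1s, 19 and 57 in cDC2s, 329 and 348 in the cluster labelled proliferating cDC2, and 1426 and 899 in pDCs. Summed UMIs gave 26 higher in CCR7+ DCs and 29 higher in proliferating cDC1s, thinning gave 17 higher in CCR7+ DCs and 586 and 390 in pDCs, and leaving out cells with a UMI of another lineage gave 274 higher in the cluster labelled proliferating cDC2. The CCR7+ DC ratio of 0.488 was 0.438 for cells with a Ccr7 and a Fscn1 UMI and 0.390 after thinning, and the pDC ratio of 1.69 was 1.13 among cells of at least 5000 UMIs. These folds turned sign: Ccl5 in pDCs (-0.46 with mean log2 values, -0.41 thinned), Ccdc174 (-0.65) and Prkca (-0.14) in pDCs when thinned, S100a9 in pDCs (0.20) and CCR7+ DCs (0.29) without cells of another lineage, S100a9 in CCR7+ DCs (0.14) and S100a8 in proliferating cDC1s (0.00050) with mean log2 values, and S100a9 in cDC2s (0.065) with summed UMIs. No paired analysis was possible because each condition was 1 culture. Depth limits pDCs most, with a median of 126 UMIs per gene compared.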
